A study of Mus musculus with 12 samples.

Results

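The 10 genes described here are transcribed in hepatocytes around the central vein of the liver lobule and depend there on Wnt/β-catenin signalling. They comprise the pathway's own inhibitors Axin2, Rnf43, Znrf3 and Nkd1, the R-spondin receptor gene Lgr5, the transcription factor gene Tbx3, the nitrogen-handling genes Glul, Oat and Rhbg, and Lect2, which encodes a secreted protein. They were taken by gene symbol from the count tables, in which all 10 were among 23574 entries. All 10 passed the filter on low counts, as did 14275 entries in all. Bulk liver RNA keeps no position within the lobule, so the pericentral place of these genes is background and was not measured.

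In this pathway, Wnt ligands bind Frizzled receptors together with Lrp5 or Lrp6, which stops the destruction of β-catenin and lets it act in the nucleus with TCF/LEF factors. R-spondins bind Lgr receptors and thereby protect Frizzled from the ubiquitin ligases Rnf43 and Znrf3. In the liver, endothelial cells of the central vein secrete Wnt2, Wnt9b and Rspo3, and the neighbouring hepatocytes take up ammonia into glutamine and express many cytochrome P450 enzymes, while periportal hepatocytes carry the urea cycle.

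The RNA came from liver of wild-type C57BL/6 mice that had all received concanavalin A (Con A), a lectin that stimulates T cells and causes immune-mediated hepatitis. Mice also received mesenchymal stem cells (MSC) or did not, and liver was taken at 6 h or 12 h. This gave 4 groups of 3 libraries, namely Con A at 6 h, Con A with MSC at 6 h, Con A at 12 h and Con A with MSC at 12 h. No group went without Con A, and the effect of 6 further hours cannot be told apart from that of the time of day. The labels give neither the species, dose and route of the MSC nor whether replicates were separate animals, and if they were not, the p-values measure a spread that may be technical. In bulk samples, fewer cells of a type and less RNA per cell cannot be told apart.

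The libraries held between 29.7 and 36.1 times 1e6 counts, and 3 counts in a library corresponded to between 0.0657 and 0.119 CPM (counts per 1e6 counts, scaled by TMM). The series text speaks of hepatocyte RNA and the labels of liver. Alb, the albumin gene of hepatocytes, had 742179 to 2008048 counts per library, and of the 7 marker lists for hepatocytes and other liver cells 1 gene was at 0 in every library of a group, the cholangiocyte gene Cftr in Con A at 12 h. Mitochondrially encoded genes took 5.59 to 24.9% of counts in the Con A libraries at 12 h, a wider range than the 6.71 to 12.1% of the other 9 libraries.

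The DNA just before the start of a gene is among the places where TCF/LEF factors could meet it, so the windows of 4 members are shown. DNA outside the windows was not searched, so a window without a match does not tell whether a gene has such a site. Glul, Oat and Lect2 hold a motif searched, and Axin2 holds neither. The 2 windows of Rnf43 and that of Nkd1, which also hold neither, are not printed. They lie inside these genes as annotated in GENCODE M21. Any link between the motifs and the changes over time was not tested. RefSeq held a window of 250 bases upstream of the start for 6 of the 10 members (Axin2, Glul, Rnf43, Nkd1, Oat and Lect2), on the build GRCm38.p6, which is not the GRCm39 that the submitters' processing notes name. The windows printed lie at chr11:108920099-108920348 on the plus strand for Axin2, at chr1:153899679-153899928 on the plus strand for Glul, at chr7:132576399-132576648 on the minus strand for Oat and at chr13:56548539-56548788 on the minus strand for Lect2. Each runs 5′ to 3′ on the gene's own strand and ends at the base before the start. Capitals mark matches, on either strand, to CTTTGA, the core of the TCF/LEF motif, or to CCAAT, the core of the site of the general factor NF-Y.
Axin2: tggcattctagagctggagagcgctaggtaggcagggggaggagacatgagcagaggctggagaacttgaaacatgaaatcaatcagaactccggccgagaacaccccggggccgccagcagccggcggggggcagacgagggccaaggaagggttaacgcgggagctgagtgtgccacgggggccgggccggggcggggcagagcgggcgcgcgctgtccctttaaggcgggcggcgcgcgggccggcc
Glul: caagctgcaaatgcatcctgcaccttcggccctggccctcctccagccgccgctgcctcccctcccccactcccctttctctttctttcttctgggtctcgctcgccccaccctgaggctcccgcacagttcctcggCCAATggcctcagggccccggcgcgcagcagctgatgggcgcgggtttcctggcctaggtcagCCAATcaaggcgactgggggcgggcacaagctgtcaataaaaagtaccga
Oat: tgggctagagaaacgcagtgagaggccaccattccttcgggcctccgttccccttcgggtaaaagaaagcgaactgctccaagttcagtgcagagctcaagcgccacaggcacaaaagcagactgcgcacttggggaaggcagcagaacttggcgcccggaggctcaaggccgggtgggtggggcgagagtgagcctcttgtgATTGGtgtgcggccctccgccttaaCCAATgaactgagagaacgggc
Lect2: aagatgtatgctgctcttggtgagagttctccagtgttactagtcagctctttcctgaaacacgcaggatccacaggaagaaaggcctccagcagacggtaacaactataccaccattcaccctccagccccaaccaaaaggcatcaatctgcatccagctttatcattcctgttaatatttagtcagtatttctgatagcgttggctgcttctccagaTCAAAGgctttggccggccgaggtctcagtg
Among the 6 members with a window, CTTTGA was found in Lect2 alone, on the reverse strand 31 to 26 bases before the start, against 13.8% of 32851 windows of the same length. CCAAT occurred in Glul at 113 to 109 and at 50 to 46 bases before the start and in Oat at 47 to 43 (reverse strand) and 22 to 18, and in 33.8% of all windows. The Axin2 window held neither motif. These matches are a description of the letters in these windows.

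Per kilobase of exon (GENCODE M21), the 10 genes spanned a wide range at 6 h without MSC. Glul lay highest at 403 CPM per kb, followed by Oat at 255, Lect2 at 60.9 and Rhbg at 6.17. Tbx3 followed at 0.663, Rnf43 at 0.401, Znrf3 at 0.391, Axin2 at 0.179, Nkd1 at 0.110 and Lgr5 at 0.0586 CPM per kb. The enzyme, transporter and secreted protein genes thus stood above the regulators of the pathway in level, and Rnf43 and Znrf3 could not be told apart within their spread. At 12 h without MSC the mean of Glul was 98.7 CPM per kb and that of Oat 85.8, and the libraries of both genes overlapped.

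**Figure D1:**
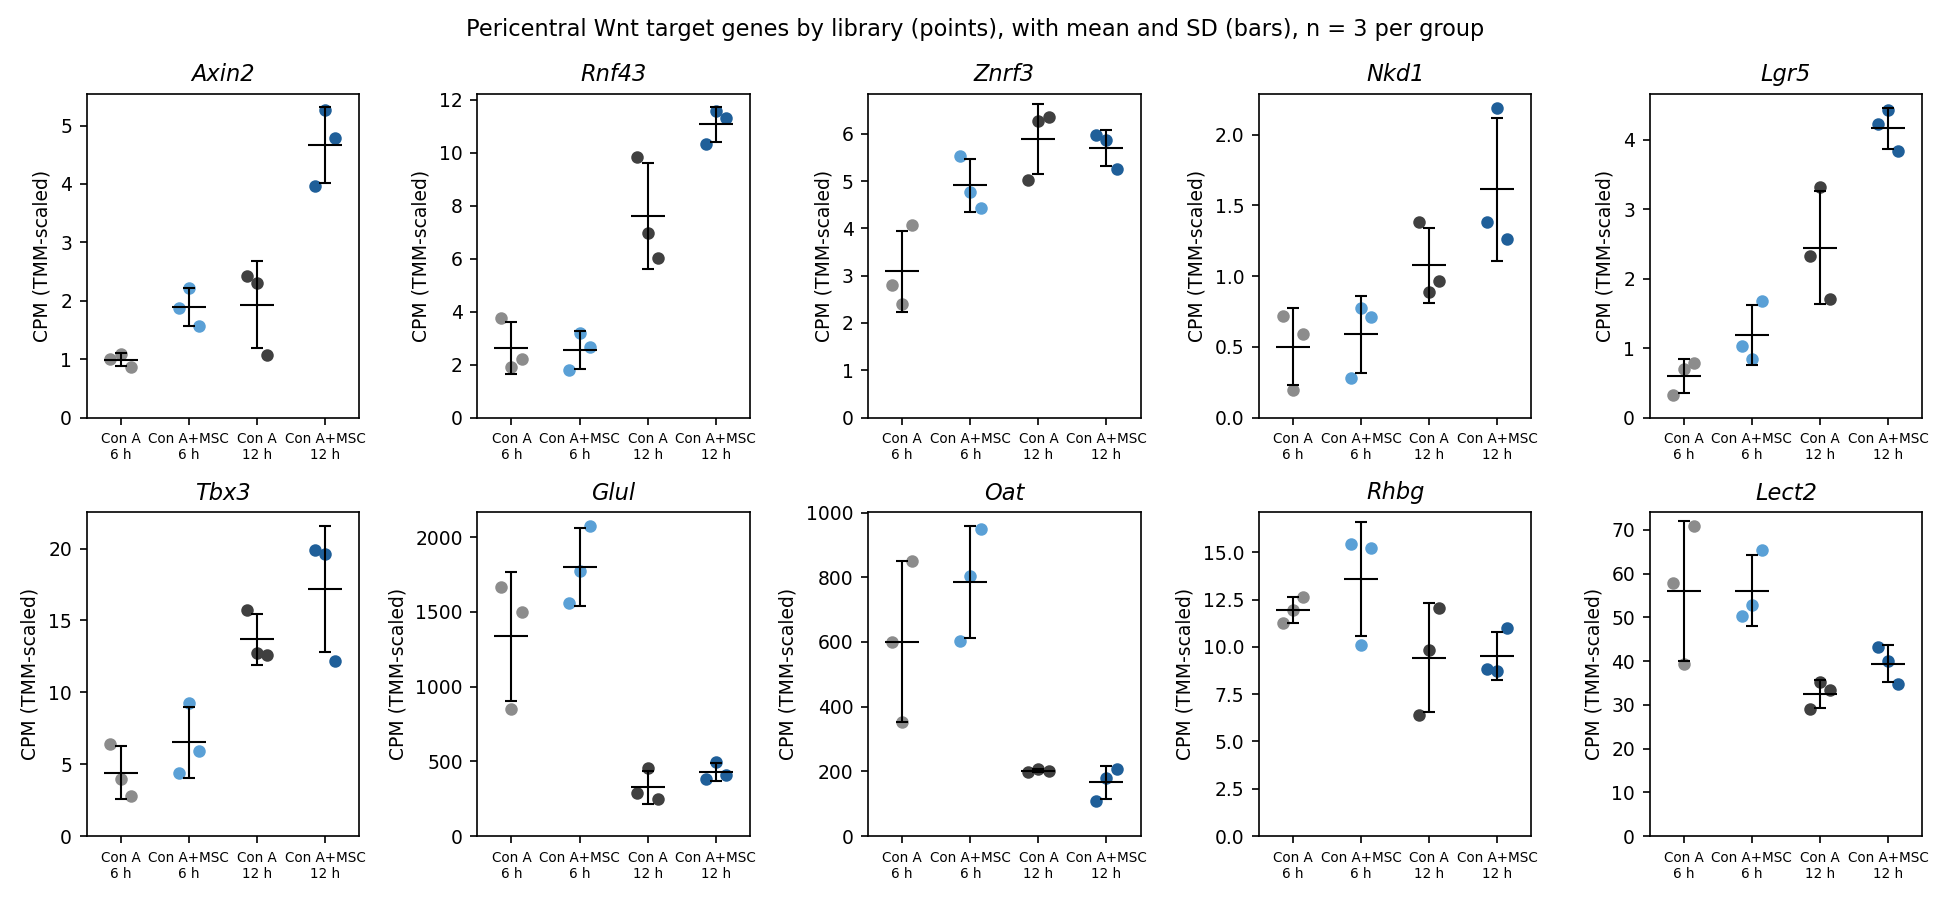
Level of each of the 10 genes in CPM (linear axes from 0) in each of the 12 libraries (points), with the mean (long bar) and SD (whiskers) of 3 libraries per group. Lgr5, Tbx3, Rnf43 and Nkd1 are higher in all 6 libraries at 12 h than in all 6 at 6 h, and Glul and Oat are lower in all 6.

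The first question was how the members changed between 6 h and 12 h after Con A. Without MSC, Axin2, Lgr5, Tbx3, Rnf43 and Znrf3 rose and Glul, Oat and Lect2 fell, which made 8 of 10 members past an adjusted p of 0.05 (edgeR quasi-likelihood test, Benjamini-Hochberg over all 14275 entries). In the same comparison 49.2% of all entries passed, 24.4% of them higher and 24.8% lower as shares of all entries. With MSC, Axin2, Lgr5, Tbx3, Rnf43 and Nkd1 rose and Glul and Oat fell, 7 of 10 members against 40.7% of all entries. The time comparisons without and with MSC share no library. In both, 4 members (Axin2, Lgr5, Tbx3 and Rnf43) rose, where 14.8% of all entries did, and 2 members (Glul and Oat) fell, where 15.5% did. The median log2 change of the 10 members was 0.95 without MSC and 0.76 with MSC, against 0.02 and 0.06 over all entries.

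Axin2 encodes the scaffold of the β-catenin destruction complex and is the most widely used readout of the pathway. At 6 h without MSC its level was 1.00, 1.09 and 0.868 CPM in replicates 1 to 3, and at 12 h without MSC 2.43, 2.30 and 1.07 CPM. Replicate 3 at 12 h lay within the range of the 6 h libraries, so these groups overlapped, with means of 0.987 ± 0.112 and 1.93 ± 0.747 CPM (SD, n = 3 each). With MSC the level was 1.87, 2.22 and 1.57 CPM at 6 h and 3.96, 5.26 and 4.79 CPM at 12 h, with no overlap. Axin2 rose 1.96-fold without MSC (log2 0.97, SE 0.32, adjusted p = 0.0238) and 2.47-fold with MSC (log2 1.31, SE 0.31, adjusted p = 0.00492). The call without MSC was lost when replicate 3 of Con A 6 h (adjusted p = 0.0661) or replicate 1 (0.0708) or 2 (0.0702) of Con A 12 h was left out, and in a fit of only the libraries compared (0.0744).

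Rnf43 and Znrf3 encode the paired membrane ubiquitin ligases that remove Frizzled from the cell surface. Rnf43 stood at 3.76, 1.92 and 2.21 CPM at 6 h and at 9.86, 6.96 and 6.03 CPM at 12 h without MSC. With MSC it stood at 1.79, 3.21 and 2.68 CPM at 6 h and at 10.3, 11.6 and 11.3 CPM at 12 h. Every library at 12 h lay above every library at 6 h. Rnf43 rose 2.90-fold without MSC (log2 1.54, SE 0.30, adjusted p = 0.00115) and 4.31-fold with MSC (log2 2.11, SE 0.30, adjusted p = 0.000187). Znrf3 stood at 2.80, 2.41 and 4.06 CPM at 6 h and at 5.03, 6.27 and 6.36 CPM at 12 h without MSC, and rose 1.91-fold (log2 0.93, SE 0.22, adjusted p = 0.00446). With MSC it was already at 5.53, 4.77 and 4.43 CPM at 6 h and lay at 5.97, 5.87 and 5.26 CPM at 12 h. These groups overlapped, and the change of Znrf3 with MSC did not pass (log2 0.22, SE 0.22, adjusted p = 0.454). The difference between the time changes of Znrf3 is tested below as a difference of the MSC effect. With scaling by total count in place of TMM, Znrf3 also rose with MSC (log2 0.76, adjusted p = 0.0141).

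Nkd1 encodes an inhibitor that binds Dishevelled and was the least abundant inhibitor of the 10 genes at 6 h. Its levels without MSC were 0.717, 0.198 and 0.592 CPM at 6 h and 1.38, 0.886 and 0.962 CPM at 12 h. With MSC they were 0.278, 0.777 and 0.714 CPM at 6 h and 1.38, 2.19 and 1.27 CPM at 12 h. All libraries at 12 h were again above all at 6 h, although the 6 h values differed by up to several fold among themselves. Nkd1 passed with MSC (2.71-fold higher, log2 1.44, SE 0.50, adjusted p = 0.0349) and not without MSC (log2 1.11, SE 0.51, adjusted p = 0.0878), where it passed under total count scaling (log2 1.43, adjusted p = 0.0421). The call with MSC was lost when replicate 1 (adjusted p = 0.115) or 3 (0.0586) at 6 h with MSC or replicate 1 (0.0514) or 2 (0.124) at 12 h with MSC was left out, with the replicate block (0.0612), and when the mitochondrial share was a covariate (0.0739).

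Lgr5, the R-spondin receptor known as a stem cell marker in the intestine, lies in pericentral hepatocytes in the liver. Its levels without MSC were 0.323, 0.693 and 0.789 CPM at 6 h and 2.32, 3.31 and 1.70 CPM at 12 h. With MSC they were 1.03, 0.847 and 1.68 CPM at 6 h and 4.22, 4.43 and 3.84 CPM at 12 h. The highest library at 6 h reached 1.68 CPM and the lowest at 12 h 1.70 CPM, so the times were separate by a narrow margin over all 12 libraries and by a wide one within each treatment. Lgr5 rose 4.06-fold without MSC (log2 2.02, SE 0.39, adjusted p = 0.00113) and by log2 1.81 with MSC (SE 0.37, adjusted p = 0.00207).

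Tbx3, a T-box repressor, was at 6.42, 3.96 and 2.80 CPM at 6 h and at 15.7, 12.8 and 12.6 CPM at 12 h without MSC. With MSC it was at 4.42, 9.25 and 5.93 CPM at 6 h and at 19.9, 19.6 and 12.2 CPM at 12 h. Its libraries did not overlap between the times. Tbx3 rose 3.11-fold without MSC (log2 1.64, SE 0.33, adjusted p = 0.00156) and 2.63-fold with MSC (log2 1.40, SE 0.32, adjusted p = 0.00472).

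Glul encodes glutamine synthetase, which joins ammonia to glutamate and in the liver lies only in the hepatocytes next to the central vein. At 6 h it stood at 1665, 849 and 1502 CPM without MSC and at 1557, 1773 and 2076 CPM with MSC. At 12 h it stood at 285, 454 and 246 CPM without MSC and at 383, 494 and 410.4 CPM with MSC. Every library at 12 h lay below every library at 6 h, including the low Con A 6 h replicate 2. Over all 12 libraries 2 members (Glul and Oat) were lower at 12 h in this way and 4 (Lgr5, Tbx3, Rnf43 and Nkd1) higher, each beside 16.2% of all entries. Glul fell by 2.03 on the log2 scale without MSC (4.08-fold lower, SE 0.29, adjusted p = 0.000163) and by 2.07 with MSC (4.20-fold lower, SE 0.29, adjusted p = 0.000177).

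Oat, the ornithine aminotransferase gene, stood at 600.8, 353 and 850.0 CPM at 6 h and at 199, 207 and 202 CPM at 12 h without MSC. With MSC it stood at 604, 803 and 950.1 CPM at 6 h and at 108, 181 and 208 CPM at 12 h. As for Glul, no library at 12 h reached the lowest at 6 h. Oat fell by 1.57 on the log2 scale without MSC (2.97-fold lower, SE 0.31, adjusted p = 0.00145) and by 2.24 with MSC (4.74-fold lower, SE 0.32, adjusted p = 0.000193).

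Rhbg, an ammonia transporter of the Rh family, ranged from 11.3 to 12.7 CPM at 6 h and from 6.38 to 12.1 CPM at 12 h without MSC, and stood at 13.6 ± 3.03 and 9.51 ± 1.28 CPM (mean and SD, n = 3) at 6 h and 12 h with MSC. The times overlapped under both treatments, and neither change passed (log2 -0.35, SE 0.23, adjusted p = 0.240 without MSC and log2 -0.52, SE 0.23, adjusted p = 0.0953 with MSC). Rhbg passed without MSC when the mitochondrial share was a covariate (log2 -0.56, adjusted p = 0.0425), and with MSC when replicate 1 of Con A at 12 h (0.0493) or replicate 2 of the MSC group at 6 h (0.0479) was left out. In GENCODE M21 Rhbg shares 61.4% of its exon bases with the overlapping gene Gm38392 on the same strand, so its counts are uncertain. Gm38392 itself was given 0 counts in all libraries but Con A 12 h replicate 2, which had 4. The antisense or nested neighbours of Axin2, Glul and Tbx3 overlap at most 3.8% of their exon bases, and the sources do not say whether counting used strand.

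Lect2 was at 57.8, 39.3 and 70.9 CPM at 6 h and at 29.0, 35.2 and 33.4 CPM at 12 h without MSC, with no overlap. With MSC it was at 50.2, 52.8 and 65.3 CPM at 6 h and at 34.9 to 43.2 CPM at 12 h, also with no overlap. Groups that do not overlap made up 54.8% of all entries without MSC and 58.6% with MSC. Lect2 fell by 0.78 on the log2 scale without MSC (1.72-fold lower, SE 0.20, adjusted p = 0.00680). With MSC the change of -0.51 (SE 0.20) did not pass (adjusted p = 0.0583), but it passed by DESeq2 (0.0445), in a fit of the 2 groups alone (0.0247) and when replicate 2 (0.0253) or 3 (0.0474) of Con A at 6 h was left out. Under total count scaling that change was 0.02, and the fall without MSC no longer passed (-0.52, adjusted p = 0.0519).

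**Figure D2:**
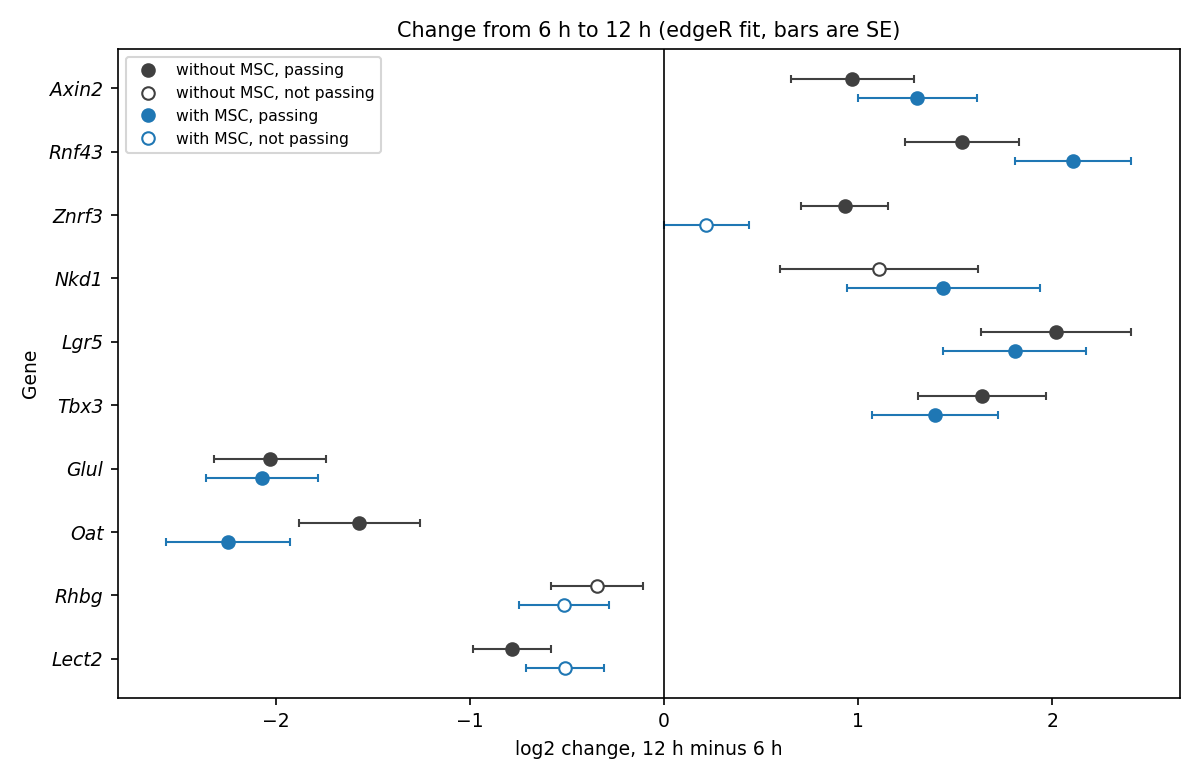
log2 change from 6 h to 12 h of each member in the edgeR fit (point) with its SE (bar), without MSC (dark) and with MSC (blue), filled where the adjusted p is below 0.05. Glul lies at -2.03 and -2.07, Oat at -1.57 and -2.24, and Lgr5, Tbx3 and Rnf43 between 1.40 and 2.11, while Znrf3 is filled without MSC only.

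Scaling moved all entries together. By total count, the median log2 change of all entries was 0.28 without MSC and 0.59 with MSC, and the higher and lower calls were split 4301 to 2353 and 5789 to 1227, in place of 3479 to 3541 and 2936 to 2878 under TMM. The changes of Glul were then -1.75 and -1.54, those of Oat -1.28 and -1.72, those of Lgr5 2.27 and 2.34 and those of Rnf43 1.85 and 2.63, all of them past the threshold. Lgr5, Tbx3, Rnf43, Glul and Oat kept their direction and call in both time comparisons under each of the 20 alternatives run.

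The second question was whether the members differed with MSC at a given time. At 6 h, none of the 10 passed in the edgeR test, where 0.0981% of all entries passed, and DESeq2 also called 0 members. At an unadjusted p under 0.05, 3 of 10 members (Axin2, Lgr5 and Znrf3) were called, against 10.9% of all entries. The same 3 were higher in every library with MSC than in every library without, and 16.6% of all entries were separate in this way in either direction. Axin2 was 1.91-fold higher with MSC at 6 h (log2 0.93, SE 0.32, unadjusted p = 0.0128, adjusted p = 0.288). Lgr5 was 1.97-fold higher (log2 0.98, SE 0.39, unadjusted p = 0.0278, adjusted p = 0.366). Znrf3 was 1.59-fold higher (log2 0.67, SE 0.22, unadjusted p = 0.0108, adjusted p = 0.272). These differences do not stand after correction over all entries. The other 7 had log2 differences between -0.04 (Rnf43) and 0.57 (Tbx3), with overlapping libraries, and the median of the 10 was 0.41 against -0.01 over all entries.

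At 12 h, 1 of 10 members passed, Axin2, where 4.08% of all entries did and 2.29% were higher. Its libraries with MSC (3.96 to 5.26 CPM) all lay above those without (1.07 to 2.43 CPM), and it was 2.40-fold higher (log2 1.27, SE 0.30, adjusted p = 0.0394). Lgr5 and Rnf43 were also separate between the groups, 3 of 10 members with Axin2 against 26.4% of all entries, but did not pass. Lgr5 was at 1.70 to 3.31 CPM without MSC and at 3.84 to 4.43 CPM with MSC (log2 0.76, SE 0.35, adjusted p = 0.224). Rnf43 was at 6.03 to 9.86 CPM without and 10.3 to 11.6 CPM with MSC (log2 0.54, SE 0.28, adjusted p = 0.286). At both times the libraries with MSC lay above all those without for 2 of 10 members (Axin2 and Lgr5), against 1.11% of all entries. This count was made after the values were seen. The call of Axin2 was near the threshold, while its log2 difference stayed between 0.97 and 1.46 with any library left out. The call was lost when replicate 2 (adjusted p = 0.0973) or 3 (0.0843) of the Con A group at 12 h was left out. The same held for replicate 2 (0.125) or 3 (0.126) of the MSC group at 12 h. Some 6 h libraries, which are not compared here, left the log2 difference at 1.25 when omitted. Even so, the call was lost without replicate 3 of Con A at 6 h (0.0571). It was lost as well without replicate 1, 2 or 3 of the MSC group at 6 h (0.0561, 0.0523 and 0.0569). It was also lost in a fit of the 2 groups alone (0.0997) and when the mitochondrial share was a covariate (log2 0.98, adjusted p = 0.148), while DESeq2 called it (adjusted p = 0.00235).

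None of Glul, Oat, Rhbg and Lect2 passed between the treatments at 12 h. Glul stood at a mean of 328 ± 111 CPM without and 429 ± 57.7 CPM with MSC (SD, n = 3; log2 0.39, SE 0.28, adjusted p = 0.444). Oat stood at 203 ± 3.62 and 166 ± 51.9 CPM (log2 -0.29, SE 0.31, adjusted p = 0.618), Rhbg at 9.43 ± 2.86 and 9.51 ± 1.28 CPM, and Lect2 at 32.5 ± 3.23 and 39.4 ± 4.22 CPM. Their libraries overlapped in each case. Of the remaining members, Tbx3 differed by log2 0.33 (SE 0.32), Nkd1 by 0.58 (SE 0.47) and Znrf3 by -0.04 (SE 0.22), none of them passing. The comparison of treatments at 12 h and that of times without MSC share the Con A 12 h libraries, so the low Con A 12 h replicate 3 of Axin2 enters both.

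Markers of other liver cells moved with the treatment at 12 h. Of 16 tested genes of sinusoidal endothelium, 8 were higher with MSC and 0 lower, where 2.29% of all entries were higher, among them Dnase1l3 (log2 2.50, adjusted p = 0.00667) and Flt4, the VEGF-C receptor gene (log2 1.69, adjusted p = 0.00667). Their summed level was 45.2 to 66.6 CPM in the Con A libraries at 12 h and 133 to 184 CPM with MSC. Of 12 stellate cell genes 6 were higher (summed level 87.4 to 124 against 176 to 266 CPM), and of 12 leukocyte genes 2 were higher (32.7 to 71.0 against 105 to 134 CPM). These counts fell when some single 12 h libraries were left out, and calls over all entries fell as well. Entries higher with MSC numbered 327, and 39 without replicate 2 of Con A at 12 h. They numbered 71 without replicate 2 of the MSC group at 12 h and 37 without replicate 3. Under the alternatives, the median log2 difference stayed between 1.42 and 1.90 for endothelial genes. It stayed between 1.07 and 1.44 for stellate and 0.58 and 1.19 for leukocyte genes. The endothelial count was 2 when replicate 2 of Con A at 12 h was left out and 3 when replicate 2 or 3 of the MSC group at 12 h was. The stellate count was 1 without any of the same libraries, and its lowest value under the alternatives was 0. The leukocyte count was 0 when that Con A library was left out and 1 when replicate 3 of the MSC group was. Under total count scaling the counts were 11, 8 and 5, and with the mitochondrial covariate 4, 2 and 2. At 6 h the endothelial sums overlapped (118 to 200 without and 131 to 208 CPM with MSC), and no gene of these lists passed. The part of these markers and of the mitochondrial share in the difference of Axin2 was not tested.

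**Figure D3:**
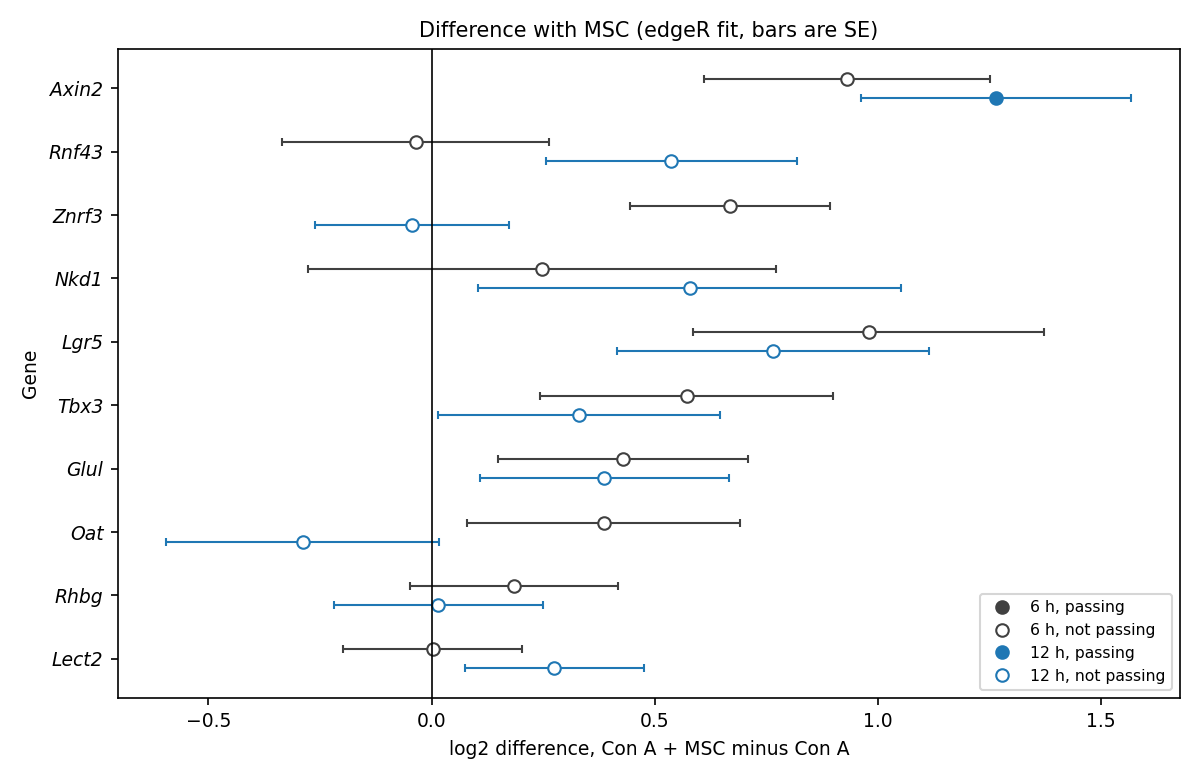
log2 difference with MSC against without MSC of each member in the edgeR fit (point) with its SE (bar), at 6 h (dark) and 12 h (blue), filled where the adjusted p is below 0.05. Axin2 at 12 h (log2 1.27) is the filled point. Rnf43 at 6 h (-0.04) and Znrf3 (-0.04) and Oat (-0.29) at 12 h lie to the left of 0. All other points lie to the right of 0, with Lect2 at 6 h (0.003) and Rhbg at 12 h (0.01) close to it.

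The difference of the MSC effect, 12 h minus 6 h, was tested for each member in the same fit. None of the 10 passed, against 0.126% of all entries, and DESeq2 called 0 members as well. At an unadjusted p under 0.05, 1 of 10 members was called, against 16.8% of all entries. That member was Znrf3, 0.67 higher with MSC at 6 h and 0.04 lower at 12 h on the log2 scale, with a difference of -0.71 (unadjusted p = 0.0400, adjusted p = 0.275). For Axin2 the difference was 0.33 (adjusted p = 0.752), for Lgr5 -0.21 (adjusted p = 0.876) and for Glul -0.04 (adjusted p = 0.971). A change of the MSC effect with time was therefore not detectable for any member at this number of libraries.

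The other genes of the pathway were read from lists of ligands, receptors and nuclear partners. Of 10 tested genes for Wnt and R-spondin ligands and their secretion, 3 rose and 0 fell between 6 h and 12 h without MSC, and 5 rose and 0 fell with MSC, where 24.4% and 20.6% of all entries rose. With MSC the count was 3 when replicate 1 at 6 h or replicate 1 or 2 at 12 h of the MSC groups was left out, and 7 under total count scaling. Wnt4 rose by log2 2.47 (SE 0.65, adjusted p = 0.00739) and 2.31 (SE 0.62, adjusted p = 0.0108), and Wnt5a by 1.81 (SE 0.39, adjusted p = 0.00220) and 1.84 (SE 0.39, adjusted p = 0.00256). The central vein ligands were near the limit of counting. Wnt2 had 4, 2 and 4 counts at 6 h and 12, 7 and 8 counts at 12 h without MSC, and 4, 3 and 7 counts at 6 h and 19, 25 and 16 counts at 12 h with MSC. Its change did not pass without MSC (adjusted p = 0.110) and passed with MSC (log2 1.43, SE 0.53, adjusted p = 0.0488), a call lost under 18 of 20 alternatives, the replicate block among them (adjusted p = 0.0723). Wnt9b, left untested by the filter, had 0, 4 and 2 counts at 6 h and 7, 8 and 8 at 12 h without MSC, and 0, 0 and 2 counts at 6 h and 16, 30 and 10 at 12 h with MSC. Every library at 12 h had more counts of Wnt9b than every library at 6 h. For Wnt2 the times overlapped in CPM, with 0.230 in Con A 12 h replicate 2 and 0.250 in Con A + MSC 6 h replicate 3. Rspo3, the R-spondin of the central vein, did not pass (log2 -0.35, adjusted p = 0.482 without MSC and -0.99, adjusted p = 0.0580 with MSC). Its fall with MSC passed by DESeq2 (adjusted p = 0.0324), in a fit of the 2 groups alone (0.0329) and when replicate 1 of Con A at 12 h was left out (0.0359).

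Of 11 tested receptor genes, 1 rose and 2 fell without MSC and 2 rose and 3 fell with MSC, 3 and 5 of 11 against 49.2% and 40.7% of all entries. Under total count scaling 6 rose and 1 fell with MSC, and 1 rose and 1 fell without. Fzd7, a Frizzled receptor gene, fell by 0.80 (SE 0.16, adjusted p = 0.00137) and 0.99 (SE 0.16, adjusted p = 0.000433) on the log2 scale. Fzd4 rose with MSC over time (log2 1.18, SE 0.20, adjusted p = 0.000735) and was the receptor gene past the threshold for MSC at 12 h (log2 1.04, adjusted p = 0.0201). Fzd4 stood at 4.96 to 6.03 CPM in the Con A libraries at 12 h and at 9.36 to 12.0 CPM with MSC, and the call was lost when replicate 2 of Con A at 12 h (adjusted p = 0.0880) or replicate 2 (0.0750) or 3 (0.0874) of the MSC group at 12 h was left out, and when the mitochondrial share was a covariate (0.0638). Lgr4, the more widely expressed relative of Lgr5, did not pass over time (log2 -0.69, adjusted p = 0.0748 and -0.08, adjusted p = 0.849), while Lgr5 rose under both treatments. Without Con A 12 h replicate 1, Lgr4 fell without MSC (log2 -1.07, adjusted p = 0.00837), and it also passed there by DESeq2 with all libraries (log2 -0.71, adjusted p = 0.0495).

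Of 11 nuclear partners tested, 4 rose and 2 fell under either treatment, 6 of 11 against 49.2% and 40.7% of all entries. Tcf7l2, the main TCF factor of the adult liver, rose by log2 0.98 (SE 0.20, adjusted p = 0.00151) without MSC and 1.15 (SE 0.20, adjusted p = 0.000701) with MSC. Tcf7l1 rose by 2.29 (SE 0.44, adjusted p = 0.00120) and 1.89 (SE 0.44, adjusted p = 0.00460). The Groucho-type corepressor genes Tle1 and Tle3 fell under both treatments, Tle1 by 1.40 and 1.41 and Tle3 by 1.36 and 1.74. The β-catenin gene Ctnnb1 did not pass (log2 -0.83, adjusted p = 0.0589 without MSC and -0.26, adjusted p = 0.565 with MSC). Its fall without MSC passed when replicate 1 of Con A at 12 h was left out (log2 -1.34, adjusted p = 0.00251). That fall also passed by DESeq2 (0.0283), with the mitochondrial share as covariate (0.0219) and without replicate 1 of the MSC group at 12 h (0.0415). With MSC, Ctnnb1 fell with the mitochondrial share as covariate (log2 -0.71, adjusted p = 0.0155), while under total count scaling the change was 0.28. Of 13 genes of β-catenin turnover, the destruction complex and its regulators, 4 rose and 3 fell without MSC and 2 rose and 3 fell with MSC, 7 and 5 of 13 against 49.2% and 40.7% of all entries. Under total count scaling 4 rose and 1 fell, and 3 rose and 0 fell.

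Sp5, a direct target of β-catenin in many tissues, had the change closest to presence against absence. It had 2, 0 and 2 counts at 6 h and 38, 36 and 13 at 12 h without MSC, and 0, 0 and 3 counts at 6 h and 42, 55 and 32 at 12 h with MSC. All libraries at 6 h were at or below 3 counts, so no fold is given (adjusted p = 0.00217 without and 0.00152 with MSC). Sp5 moved in the direction of Axin2, Lgr5, Tbx3 and Rnf43. Of 7 tested targets that are not specific to the liver, 1 rose (Sp5) and 5 fell without MSC, and 1 rose and 3 fell with MSC, where 49.2% and 40.7% of all entries passed. Sox4 had positive changes that did not pass (log2 0.31 and 0.70) and was chosen after its values were seen. With MSC, 1 fell under total count scaling, or when replicate 1 at 6 h or replicate 3 at 12 h of the MSC groups was left out. Myc, the growth regulator gene, fell by 2.02 (adjusted p = 0.00244) and 3.45 (adjusted p = 0.000134) on the log2 scale.

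**Figure D4:**
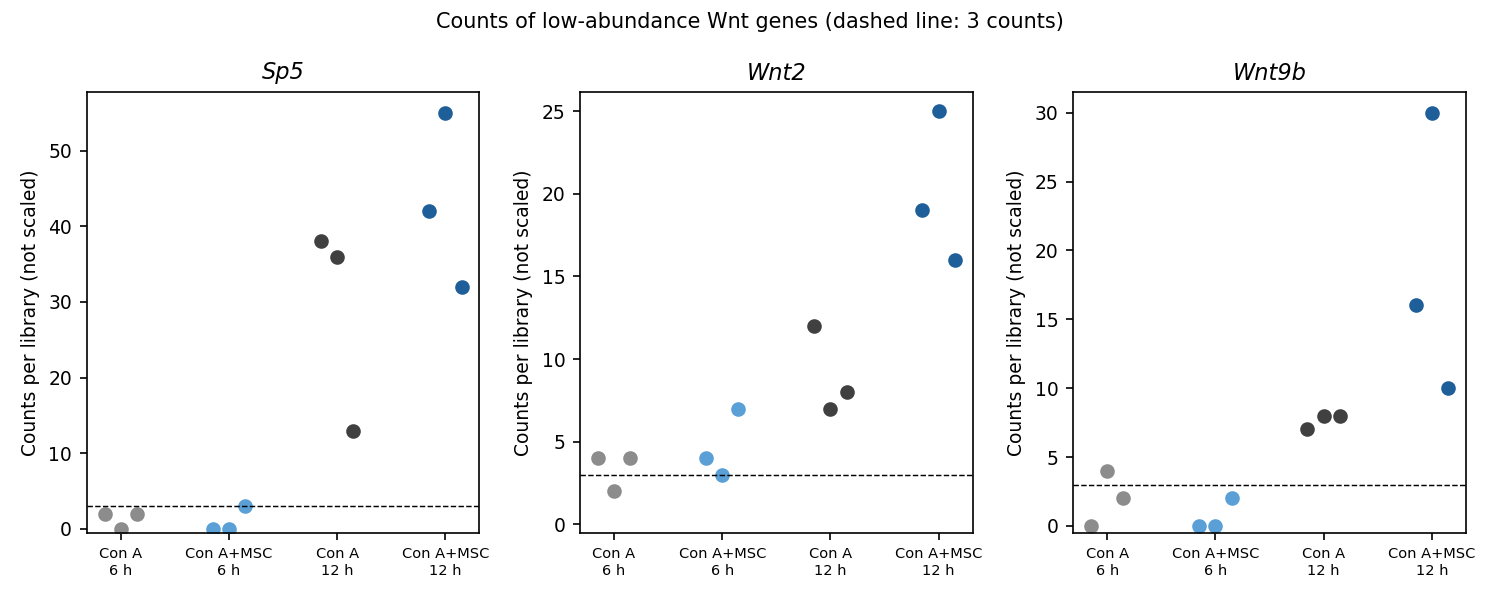
Counts per library, not scaled, of Sp5, Wnt2 and Wnt9b in the 4 groups (linear axes from 0, dashed line at 3 counts). Sp5 has 0 to 3 counts in the 6 libraries at 6 h and 13 to 55 counts in the 6 libraries at 12 h.

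The falls of Glul and Oat were set beside other zonated genes. Of 20 other pericentral hepatocyte genes, 0 rose and 16 fell without MSC (median log2 -1.58), and 1 rose and 16 fell with MSC (median -1.89), where 24.8% and 20.2% of all entries fell. Cyp2e1, the ethanol-oxidizing P450 gene, fell 4.33-fold (adjusted p = 7.29e-05) and 4.58-fold (adjusted p = 6.93e-05), beside 4.08-fold and 4.20-fold for Glul. Cyp1a2 fell by 1.60 (SE 0.31, adjusted p = 0.00118) and 2.31 (SE 0.32, adjusted p = 0.000146), and Cyp2a5 by 4.40 and 4.36. The gene that rose with MSC was Nr1i3, which encodes the nuclear receptor CAR (log2 1.57, adjusted p = 0.00377), and it was chosen after its value was seen. Nr1i3 was also higher with MSC than without at 12 h (log2 1.38, adjusted p = 0.0469), a call lost under 15 of 20 alternatives.

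Genes of the opposite zone fell too. Of 19 periportal genes tested, 1 rose and 14 fell without MSC (median -1.43), and 3 rose and 12 fell with MSC (median -1.36). Cps1, the entry enzyme gene of the urea cycle, fell by 2.85 and 2.17, Ass1, a later step of that cycle, by 2.28 and 2.13, and Sds, serine dehydratase, by 2.34 and 2.90. G6pc, glucose-6-phosphatase, rose by 2.32 and 3.81 and was chosen after its values were seen. Of 11 hepatocyte genes without a zone, 0 rose and 7 fell without MSC (median -0.84) and 0 rose and 8 fell with MSC (median -0.78). With MSC, 1 fell under total count scaling, and between 2 and 5 fell when any library of the MSC groups was left out. Alb fell by 1.27 (SE 0.27, adjusted p = 0.00197) and 0.85 (SE 0.26, adjusted p = 0.0220). The call for Alb with MSC was lost under total count scaling (log2 -0.31, adjusted p = 0.187) and when replicate 1 (0.0828) or 2 (0.0626) at 12 h or replicate 1 (0.0689) or 2 (0.0569) at 6 h of the MSC groups was left out. Whether the falls of the pericentral and periportal lists differed was not tested.

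**Figure D5:**
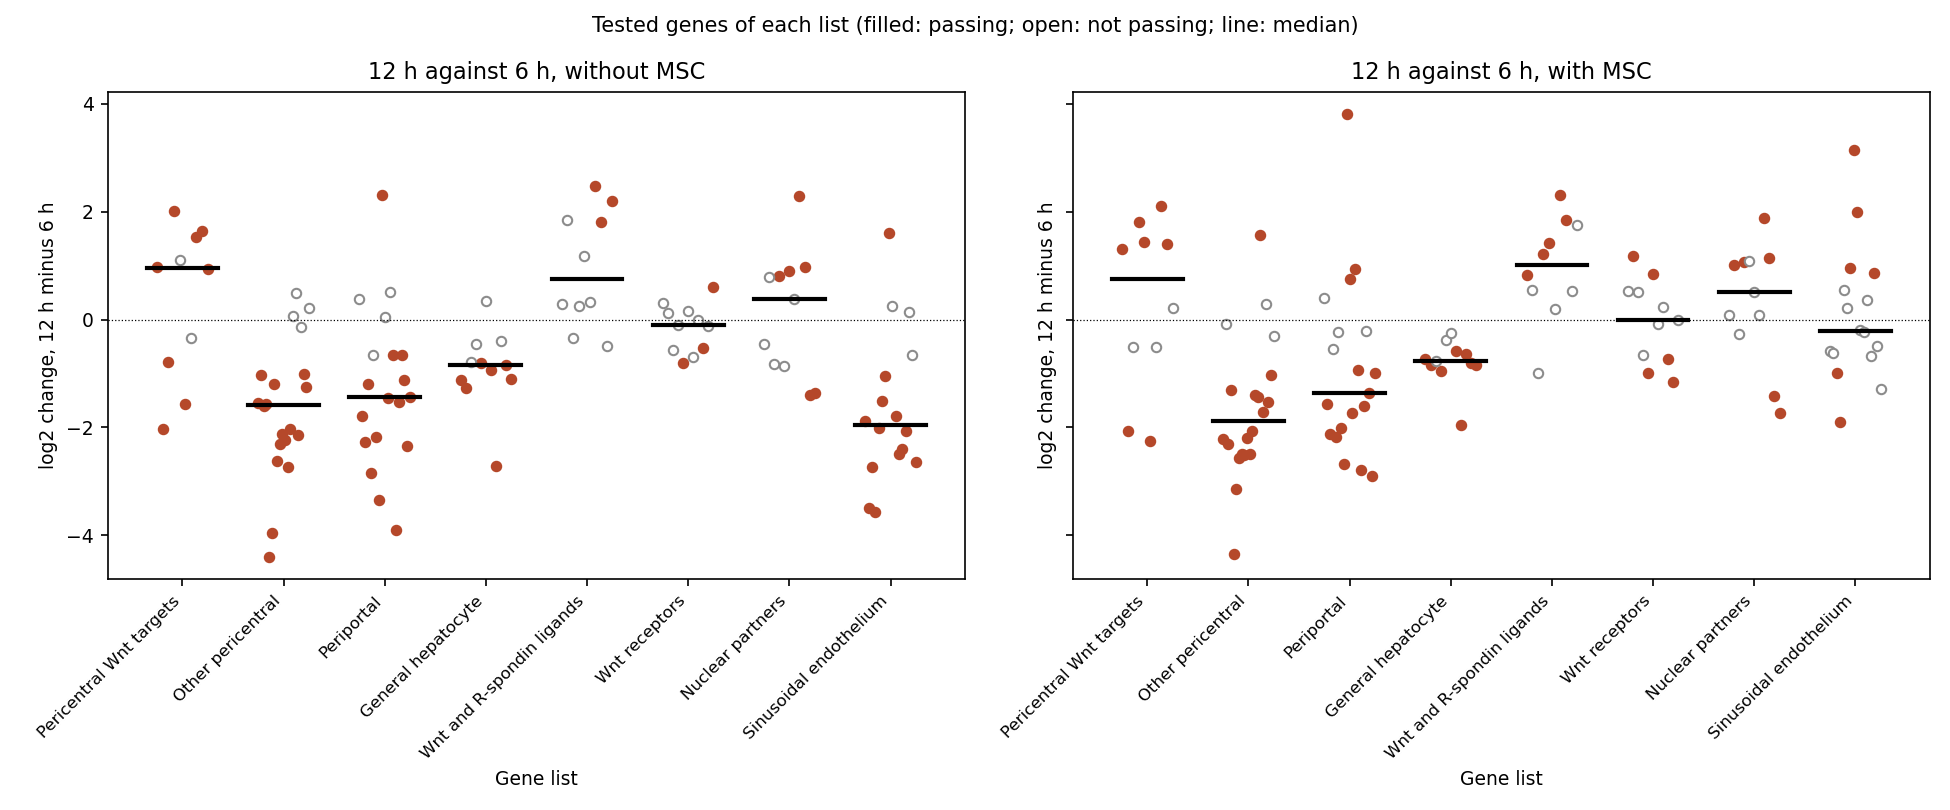
log2 change from 6 h to 12 h of every tested gene of the members and 7 other lists, without MSC (left) and with MSC (right), filled where the adjusted p is below 0.05, with the median of each list as a bar. The members spread to both sides of 0, with a median of 0.95 and 0.76, while the medians of the other pericentral, periportal and general hepatocyte lists lie below 0.

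Genes of other liver cells changed over time as well, where 24.4% of all entries rose and 24.8% fell without MSC and 20.6% rose and 20.2% fell with MSC. Of 16 endothelial genes 1 rose and 12 fell without MSC (median -1.95), and 4 rose and 2 fell with MSC (median -0.21). Their summed level went from 118 to 200 CPM at 6 h to 45.2 to 66.6 CPM at 12 h without MSC, and from 131 to 208 CPM to 133 to 184 CPM with MSC. Of 12 stellate cell genes 1 rose and 7 fell without MSC and 4 rose and 4 fell with MSC, and of 12 leukocyte genes 0 rose and 6 fell and 2 rose and 2 fell. Of 7 cholangiocyte genes tested, 0 rose and 1 fell without MSC, 1 rose and 1 fell with MSC, and 0 passed for MSC at 12 h, or 3 when replicate 1 of the MSC group at 12 h was left out. With MSC the falls of stellate genes numbered 1 and those of leukocyte genes 0 under total count scaling. The rises of Lgr5, Tbx3 and Rnf43 were measured under both treatments. The part of these markers in the time changes of the members was not tested.

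The genes most like 2 members over the 12 libraries were found by Pearson's r of log2 CPM among 11152 genes, as a description. Closest to Glul were Elovl6 (r = 0.98), which elongates fatty acids, Bche (0.98), the secreted butyrylcholinesterase, Plpp3 (0.98), Cyp2e1 (0.98) and Ube2e2 (0.98). The libraries fall into 2 times, so part of these values is the step between 6 h and 12 h. Within the 6 libraries at 12 h, r with Glul was 0.69 for Elovl6, 0.78 for Bche, 0.87 for Plpp3, 0.70 for Cyp2e1 and 0.82 for Ube2e2. Within the 6 libraries at 6 h it was 0.98, 0.84, 0.91, 0.91 and 0.84 in the same order. Closest to Axin2 were Ocln (r = 0.95), a tight junction gene, Rnf170 (0.93), Cep68 (0.93), Unc13b (0.92) and Reck (0.92). Within the 6 libraries of a time, Ocln had r = 0.92 at 6 h and 0.93 at 12 h with Axin2, and Reck 0.89 and 0.92. Rnf170 had 0.71 and 0.94, Cep68 0.80 and 0.95, and Unc13b 0.98 and 0.86. No other of the 10 members was among these genes.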

How the data were processed

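The deposited tables, 1 for each group, hold whole-number counts per gene, with no normalization found in the values. Per the submitters' processing notes, the assembly was GRCm39 and the tools included StringTie 2.1.2, Bowtie2 2.2.5 and HISAT2 2.0.4. The counting program, annotation and strandedness are not given in these sources. Samples were grouped by the labels. All 12 libraries entered 1 fit with 4 group means (edgeR 4.0.16, glmQLFit and glmQLFTest, two-sided, filterByExpr, TMM, 8 residual degrees of freedom), with Benjamini-Hochberg adjustment over 14275 entries and a threshold of 0.05; SE is the size of the change over the root of the F statistic. The procedure was tested on simulated data, drawn independently for each gene and library. Shifts shared by many genes of a library, beyond its total count, were not simulated. No 2 libraries of a group agreed within sampling noise (chi-square per degree of freedom 46.3 or more). The members, the 13 companion lists (183 genes, 181 in the tables, 154 tested), the tests and the alternatives were chosen with earlier results of these data known. Named were all members, up to 4 genes of a list with the smallest p in a comparison, a set of 11 genes reported whatever their result (Wnt2, Wnt9b, Rspo3, Lgr4, Ctnnb1, Tcf7l2, Cyp2e1, Cyp1a2, Cps1, Ass1, Alb), and the 5 genes most like Glul and Axin2 with a mean of at least 1 CPM. CPM values use TMM; likeness used log2 CPM with a prior count of 2. Alternatives were DESeq2 1.42.0, total count scaling, DESeq2 size factors, fits of 2 groups, no filter, mitochondrial genes left out or as a covariate, a replicate block, and each library left out.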

Additional observations from a re-analysis of the deposited data

How the results depend on the processing

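Of 990 values of the members under the alternatives, 923 kept direction and side of the threshold, 21 lost and 9 gained the threshold, and 37 changed sign, all 37 of them in values that did not pass. The number of members passing for MSC at 12 h was 1, and 0 with only the 2 groups compared and with the mitochondrial share as covariate, and ranged from 0 to 1 with each library left out; that for time without MSC ranged from 7 to 9 (9 with the mitochondrial share as covariate) and that for time with MSC from 6 to 8. Sign changes under total count scaling were Znrf3, MSC at 12 h (0.24), Lect2 and Rhbg, time with MSC (0.0223 and 0.0238), and, in the 12 h minus 6 h difference, Lgr5 (0.0664), Glul (0.21) and Rhbg (0.16). With the mitochondrial share as covariate they were Rnf43 and Lect2, MSC at 6 h (0.0599 and -0.0328), Znrf3, MSC at 12 h (0.15), and for the difference Axin2 (-0.0517) and Rhbg (0.26). With only the 2 groups compared it was Lect2, MSC at 6 h (-0.0098). With a library left out, values ranged for MSC at 6 h from -0.22 to 0.31 (Rnf43), -0.13 to 0.60 (Nkd1) and -0.19 to 0.21 (Lect2), for MSC at 12 h from -0.21 to 0.21 (Rhbg) and -0.15 to 0.024 (Znrf3), and for the difference from -0.47 to 0.10 (Lgr5), -0.0422 to 0.72 (Nkd1), -0.25 to 0.24 (Glul), -0.41 to 0.0283 (Rhbg) and -0.63 to 0.068 (Tbx3). Among companion genes, whose alternatives were added after seeing the data, total count scaling changed the sign of Ctnnb1 (0.28), Lgr4 (0.44) and Notum (0.30), time with MSC, and Lgr4 there ranged from -0.28 to 0.0885 with a library left out. The cause of these changes was not tested.

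Over all entries, MSC at 6 h gave 14 calls in the main setting, 307 by DESeq2, 63 with the mitochondrial covariate, 50 without the filter, 31 under total count scaling and 2 in the fit of 2 groups, and MSC at 12 h gave 582, 1477 (DESeq2), 168 (mitochondrial covariate) and 135 (2 groups); at 12 h total count scaling split calls 734 higher to 95 lower. The difference of the MSC effect gave 18 calls and 705 by DESeq2.

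No pairing by replicate number was seen in the values. Deviations of same-numbered libraries correlated between -0.23 and 0.13 (18 pairs) and those of different-numbered libraries between -0.14 and 0.20 (36 pairs). Of 12 libraries, 2 correlated best with their own number. With 3 libraries per group, these values cannot show whether numbers mark shared animals or batches. With the replicate block, 6 members passed for time with MSC, Nkd1 being lost (adjusted p = 0.0612), and no other member's call changed; Rnf43, MSC at 6 h, became 0.0024 on the log2 scale, and all calls became 4 for MSC at 6 h and 313 for MSC at 12 h. Low counts limit Nkd1, Lgr5 and Axin2 among the members, and Wnt2, Wnt9b and Sp5.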

Other observations

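Secreted inhibitors of Wnt signalling, which act outside the cell, were read beside the inhibitors among the members. Of 5 tested, 1 rose and 3 fell between 6 h and 12 h without MSC (median log2 -1.35), and 1 rose and 0 fell with MSC (median 0.51), where 49.2% and 40.7% of all entries passed. Notum, which encodes an enzyme that removes the lipid from Wnt ligands and is itself a Wnt target of pericentral hepatocytes, stood at 15.0, 6.87 and 12.5 CPM at 6 h and at 5.44, 3.97 and 3.995 CPM at 12 h without MSC. With MSC it stood at 8.35, 7.77 and 9.28 CPM at 6 h and from 6.03 to 7.997 CPM at 12 h. Notum fell by 1.35 on the log2 scale without MSC (SE 0.27, adjusted p = 0.00130) and did not pass with MSC (-0.23, SE 0.26, adjusted p = 0.502), so it did not rise where Axin2 and Rnf43 rose. Dkk3, a member of the Dickkopf family, rose by 1.49 (SE 0.42, adjusted p = 0.0109) without MSC and 2.44 (SE 0.43, adjusted p = 0.000773) with MSC. Sfrp1, a secreted Frizzled-related protein, stood at 1.04, 14.0 and 5.24 CPM in the Con A libraries at 6 h, a wider spread than in any other group, and at 0.587, 0.525 and 0.962 CPM at 12 h, where it had fallen by 3.30 (SE 0.82, adjusted p = 0.00573).

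Cd44, an adhesion receptor gene and Wnt target, fell by 2.33 on the log2 scale over time without MSC (SE 0.29, adjusted p = 6.81e-05). With MSC it fell by 0.98 (SE 0.28, adjusted p = 0.0137), a call lost under total count scaling (-0.43, adjusted p = 0.164) and when replicate 3 at 12 h (0.0577) or replicate 1 at 6 h (0.0855) of the MSC groups was left out. Between the treatments at 12 h, Cd44 was higher with MSC (log2 1.29, SE 0.29, adjusted p = 0.0317), a call lost under 7 of 20 alternatives. Among the 10 members, Glul supplied between 47.1 and 70.9% of the summed CPM per library.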
